A study of Mus musculus with 6 samples.

Results

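Nodal and its partners are the genes considered here. They are 9 genes chosen by symbol for their roles: the ligands Nodal and Gdf3, the co-receptors Tdgf1 (Cripto) and Cfc1 (Cryptic), the type I receptors Acvr1b and Acvr1c, the transcription factor Foxh1, and the inhibitors Lefty1 and Lefty2. All 9 had a row of their own among 30176 genes, 1 row each. Clariom D arrays, which probe coding and non-coding mouse transcripts, measured total RNA of whole aggregates of R1 mouse embryonic stem cells held in alginate core–shell microcapsules. The 3 arrays before pre-differentiation were made from aggregates grown for 7 days in Knockout DMEM with Knockout serum and leukaemia inhibitory factor. The 3 arrays after pre-differentiation came from aggregates that had spent another 3 days in DMEM with BMP-4 and bFGF, a medium for which neither the serum nor leukaemia inhibitory factor is listed. The labels name no genetic change in either group, the study's methods describe a line carrying a fluorescent protein plasmid without saying whether these arrays used it, and each array is labelled as a biological replicate. Factors, medium and age of the culture change together, so their effects cannot be told apart. The comparison addresses whether transcripts of this pathway differed before and after the culture step meant to direct the aggregates towards the early cardiac lineage.

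Nodal and Gdf3 are secreted ligands of the TGF-beta family. They act through a complex of a type I receptor (ALK4, encoded by Acvr1b, or ALK7, encoded by Acvr1c), a type II receptor and a co-receptor of the EGF-CFC family, Cripto or Cryptic. The activated receptor phosphorylates Smad2 and Smad3, which enter the nucleus with Smad4 and act on DNA with partners such as Foxh1. Nodal itself and both Lefty genes are known targets, and the Lefty proteins bind the ligand or the co-receptor and block signalling, which closes a feedback loop. In the mouse embryo the pathway is known for inducing mesoderm and endoderm and for setting the left-right axis, and undifferentiated embryonic stem cells transcribe several of its genes.

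The 3 arrays after pre-differentiation differed among themselves. A principal component analysis of the 5000 most variable rows put 76.6% of their variance on its first axis, where after replicate 1 lay at -2.48, between the arrays before (-109.3 to -63.9) and after replicates 2 and 3 (131.4 and 130.9). The mean log2 signal of 8 embryonic stem cell markers was 12.88 to 13.34 on the arrays before, 12.11 on after replicate 1, and 6.86 and 7.45 on after replicates 2 and 3. The stem cell label thus had its markers before the step. After it 7 of the 8 had a lower mean, as did 20605 of all 30176 genes, while Klf4 had a higher one (log2 change 0.49). Limma called 0 of the 8 lower with all arrays and 7 without after replicate 1, against 0.650% and 7.48% of all genes. With all arrays it called 1.24% of all genes higher. It called 5 of 7 parietal endoderm, 1 of 6 visceral endoderm, 0 of 4 fibroblast and 0 of 5 cardiomyocyte markers higher. Without after replicate 1 it called 7, 4, 3 and 0 of them higher, against 7.80% of all genes. The median log2 changes of these lists between the groups were 6.35, 5.32, 5.83 and 0.79 with all arrays. The part of cells of these types in the results given here was not tested. The RNA is that of whole aggregates, so fewer cells of a type and less RNA per cell cannot be told apart. For each of the 9 genes the change is given with all arrays and without after replicate 1.

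Promoter sequence is shown for 3 genes: Nodal and Tdgf1, both at a lower mean after pre-differentiation, and the receptor gene Acvr1b, at a similar level in both groups. RefSeq entries (GRCm38.p6) were matched for 5 of the 9 genes. The 250 bases before the start are printed 5′ to 3′ on the gene's strand, and capitals mark each CG dinucleotide, the site of DNA methylation. The windows are chr10:61417722-61417971 (plus strand) for Nodal, chr9:110946159-110946408 (minus strand) for Tdgf1 and chr15:101173822-101174071 (plus strand) for Acvr1b.
Nodal: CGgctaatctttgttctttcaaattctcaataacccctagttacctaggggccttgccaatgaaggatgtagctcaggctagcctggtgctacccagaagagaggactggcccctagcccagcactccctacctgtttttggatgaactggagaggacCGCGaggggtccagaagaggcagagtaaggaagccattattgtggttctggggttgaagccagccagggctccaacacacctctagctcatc
Tdgf1: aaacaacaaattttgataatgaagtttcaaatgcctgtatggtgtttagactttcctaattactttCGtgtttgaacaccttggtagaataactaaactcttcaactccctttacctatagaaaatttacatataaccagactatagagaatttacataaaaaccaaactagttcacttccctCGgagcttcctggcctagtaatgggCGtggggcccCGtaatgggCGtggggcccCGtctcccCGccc
Acvr1b: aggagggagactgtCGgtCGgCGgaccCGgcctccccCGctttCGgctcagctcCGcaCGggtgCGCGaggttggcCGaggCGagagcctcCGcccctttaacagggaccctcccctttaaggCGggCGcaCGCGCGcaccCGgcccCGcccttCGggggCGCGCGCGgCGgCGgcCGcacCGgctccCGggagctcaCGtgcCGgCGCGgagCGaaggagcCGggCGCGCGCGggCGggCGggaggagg
These windows hold 3 CG sites for Nodal, 7 for Tdgf1 and 42 for Acvr1b. Of the matched genes not shown, Cfc1 has 2 CG sites, and Acvr1c has 32 or 2 depending on the start used. Whether CG sites go with the change was not tested. Among 32851 promoter windows, 29.03% have fewer than Nodal, 53.7% fewer than Tdgf1 and 99.14% fewer than Acvr1b. The Tdgf1 window also carries a stretch of 19 bases in 2 directly adjacent copies, GTAATGGGCGTGGGGCCCC. None of the motifs searched on both strands lay in the windows of the 5 genes: AATCCACA (present in 0.718% of all windows) and AATACACA (0.895%) for FOXH1, GTCTAGAC (0.167%) and CAGACA (17.1%) for SMAD proteins, ATGCAAAT (1.601%) for octamer factors, CATTGTT (3.29%) for SOX factors and GGGTGTG (6.93%) for KLF factors. No match says only that these letters are not in these windows.

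Of the 9 genes, 7 had a lower and 2 a higher mean after pre-differentiation, as did 20605 and 9571 of all 30176 genes. With all arrays, limma called 1 of the 9 lower (Gdf3) and 0 higher at an adjusted p under 0.05, where 0.650% of all genes were called lower and 1.24% higher. At an unadjusted p under 0.05, 6 of the 9 were lower (Nodal, Gdf3, Tdgf1, Foxh1, Lefty1 and Lefty2) against 19.7% of all genes. Without after replicate 1, 5 were called lower (Nodal, Gdf3, Tdgf1, Foxh1 and Lefty1) and 0 higher, against 7.48% and 7.80% of all genes. In 5 of the 9 every array after lay below every array before (Nodal, Gdf3, Tdgf1, Lefty1 and Lefty2), and in 0 above, which held for 28.2% and 11.8% of all genes. An ordinary comparison of the means gene by gene called 5 of the 9 lower and 0 higher at an unadjusted p under 0.05. It called 18.4% of all genes lower and 7.69% higher. The paper lists a test of this kind for other assays, and for the fold changes of its arrays it names only Transcriptome Analysis Console. The median log2 change of the 9 genes was -1.98, beside -0.16 for all genes, and without after replicate 1 these medians were -2.48 and -0.18. Cfc1 and Acvr1c had both group means below a background level of 4.27, taken from olfactory and vomeronasal receptor genes, and so carried little information. Over the 7 others the median was -2.14.

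**Figure D1:**
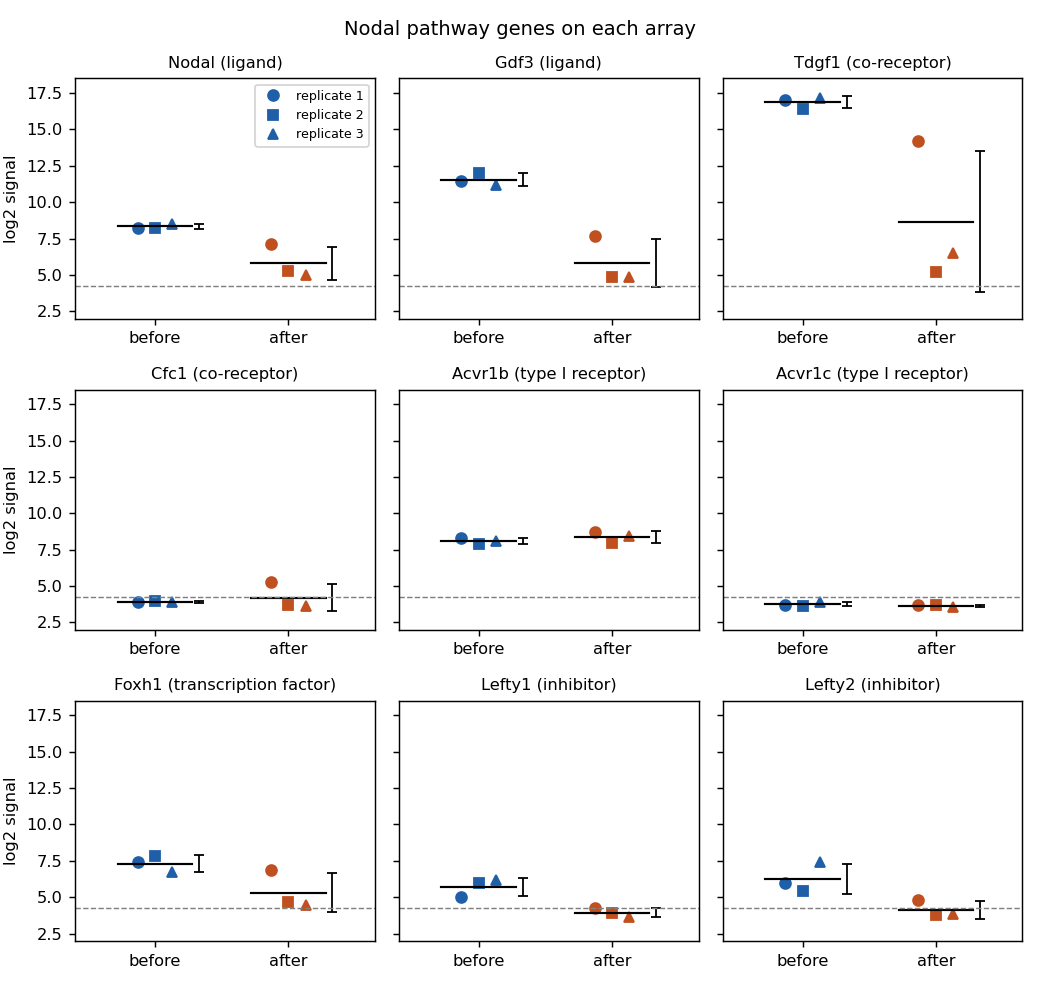
Log2 signal (vertical axis) of the 9 genes on each array, with before in blue and after in orange and a marker shape for each replicate; black lines are group means, bars 1 SD (n = 3) and the dashed line the background level of 4.27. After replicate 1 (orange circle) is the highest of the arrays after for every gene plotted, and Tdgf1 spans the widest range, from 17.15 down to 5.22.

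Gdf3, a ligand first known from pluripotent cells and also described as a BMP inhibitor, was the gene of the group that passed the test. Its log2 signal before pre-differentiation was 11.43, 12.02 and 11.19, and after it 7.70, 4.84 and 4.87. The groups did not overlap, and the nearest arrays were 3.49 log2 units apart. Gdf3 fell by 5.75 on the log2 scale (95% interval -7.75 to -3.75, standard error 0.81, limma adjusted p = 0.0474), which is 53.7-fold lower. After replicates 2 and 3 were close to each other and just above the background level, whereas after replicate 1 kept a signal well above it. Without after replicate 1 the log2 change was -6.70 (adjusted p = 0.00158). The call with all arrays was a narrow one. Leaving out before replicate 1, 2 or 3 gave adjusted p-values of 0.181, 0.0737 and 0.105, and leaving out after replicate 2 or 3 gave 0.185 and 0.167.

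Nodal, the ligand that gives the pathway its name, gave tight values before pre-differentiation, at a log2 signal of 8.25, 8.26 and 8.53. The arrays after read 7.10, 5.28 and 4.99. Every array after was thus lower than every array before, by at least 1.15 log2 units. The mean log2 signal was 8.35 ± 0.16 in the 3 arrays before and 5.79 ± 1.14 in the 3 after (SD). With all arrays the difference of -2.56 on the log2 scale missed the threshold, with a 95% interval of -3.93 to -1.19 (limma adjusted p = 0.0818, standard error 0.56). Without after replicate 1 Nodal fell by 3.21 on the log2 scale (limma adjusted p = 0.00249, standard error 0.17). The change of Nodal was 3.19 log2 units smaller than that of Gdf3 (SD of the difference between both genes 0.55 before and 0.54 after, n = 3 each). An exact two-sided permutation test of that difference gave p = 0.1, the smallest that 3 arrays against 3 allow, or 0.2 after adjustment over the 4 pairs compared within a role. The pairs of co-receptors and of type I receptors each hold a gene with both means below the background level, so their differences are not given.

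Tdgf1 encodes Cripto, the membrane-anchored co-receptor through which Nodal and Gdf3 reach ALK4. Its row was read at a log2 signal of 17.05, 16.39 and 17.15 before pre-differentiation and at 14.19, 5.22 and 6.53 after. The arrays before lay close together, while those after were spread over about as wide a range as the groups were apart. The log2 change was -8.22 (95% interval -13.91 to -2.53, standard error 2.32, limma adjusted p = 0.120), with an SD of 4.85 after against 0.41 before. Without after replicate 1 it became -10.99 (limma adjusted p = 0.00166, standard error 0.46), so whether Tdgf1 passed depended on that 1 array. The pseudogene Tdgf1-ps1 on another chromosome had nearly the same profile (17.24, 16.51 and 17.39 before, 14.10, 4.33 and 6.02 after). Transcripts of a gene and of a near-identical copy may bind each other's probes, and the probe sequences were not used here, so the signal of the row cannot be assigned to Tdgf1 alone.

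Cfc1, the other EGF-CFC co-receptor, which is known for its part in left-right patterning, gave a different picture. Its log2 signal was 3.88, 3.996 and 3.90 before pre-differentiation and 5.27, 3.71 and 3.63 after. Only after replicate 1 exceeded the background level. The log2 change was 0.27 (95% interval -0.83 to 1.38, standard error 0.45, limma adjusted p = 0.712), and it turned to -0.26 without after replicate 1 (adjusted p = 0.267). The visceral endoderm list was split on after replicate 1: Cubn (16.79) and Amn (9.09) had their highest signal there, while Afp (11.60), Ttr (9.52), Apoa1 (6.64) and Apob (7.99) had the lowest of the 3 arrays after. The part of such cells in the Cfc1 signal was not tested.

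The receptor gene Acvr1b, which encodes ALK4, had similar levels in both groups. Its log2 signal was 8.28, 7.92 and 8.09 before and 8.73, 7.93 and 8.46 after, so the groups overlapped. The log2 change of 0.28 (limma adjusted p = 0.468, standard error 0.23) had a 95% interval of -0.29 to 0.85. Without after replicate 1 it was 0.10 (adjusted p = 0.786). Acvr1c, which encodes ALK7, was below the background level on each of the 6 arrays, at 3.64 to 3.90 before and 3.59 to 3.71 after. Its log2 change was -0.10 (limma adjusted p = 0.609, standard error 0.12), or -0.13 without after replicate 1 (adjusted p = 0.597), and changed sign when arrays were quantile normalized (0.07) or centred on their medians (0.08).

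Foxh1, the forkhead factor that carries activated Smad2 or Smad3 to many Nodal targets, read 7.39, 7.82 and 6.70 before pre-differentiation on the log2 scale. After it the arrays read 6.85, 4.65 and 4.45. After replicate 1 lay within the range of the arrays before, and the other two lay near the background level. The log2 change was -1.98 (95% interval -3.69 to -0.28, standard error 0.70, limma adjusted p = 0.161). Without after replicate 1 Foxh1 fell by 2.75 on the log2 scale (limma adjusted p = 0.0152, standard error 0.35).

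Lefty1 and Lefty2 encode closely related secreted inhibitors, and their genes lie near each other on chromosome 1 in RefSeq. Lefty1 had a log2 signal of 4.99, 5.95 and 6.18 before and 4.26, 3.92 and 3.62 after. Lefty2 had 5.98, 5.41 and 7.41 before and 4.80, 3.75 and 3.82 after. For both genes the groups did not overlap, with gaps of 0.73 and 0.61 log2 units, and the means after (3.93 and 4.12) were below the background level of 4.27. For Lefty1 the log2 change was -1.77 (95% interval -2.64 to -0.91, standard error 0.35, limma adjusted p = 0.0718), and -1.94 without after replicate 1 (adjusted p = 0.0468). For Lefty2 it was -2.14 (95% interval -3.55 to -0.73, standard error 0.57, limma adjusted p = 0.112), and -2.48 without after replicate 1 (adjusted p = 0.0739). Before replicate 3 was the highest array for both, and without it Lefty2 had a log2 change of -1.57 and Lefty1 one of -1.54. Their changes differed by 0.37 log2 units, against an SD of that difference of 0.96 before and 0.35 after (exact permutation p = 0.6, also over the 4 pairs). Most arrays after lay below the background level for these genes, where a further loss of signal cannot be seen, and related sequences may share signal here too.

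**Figure D2:**
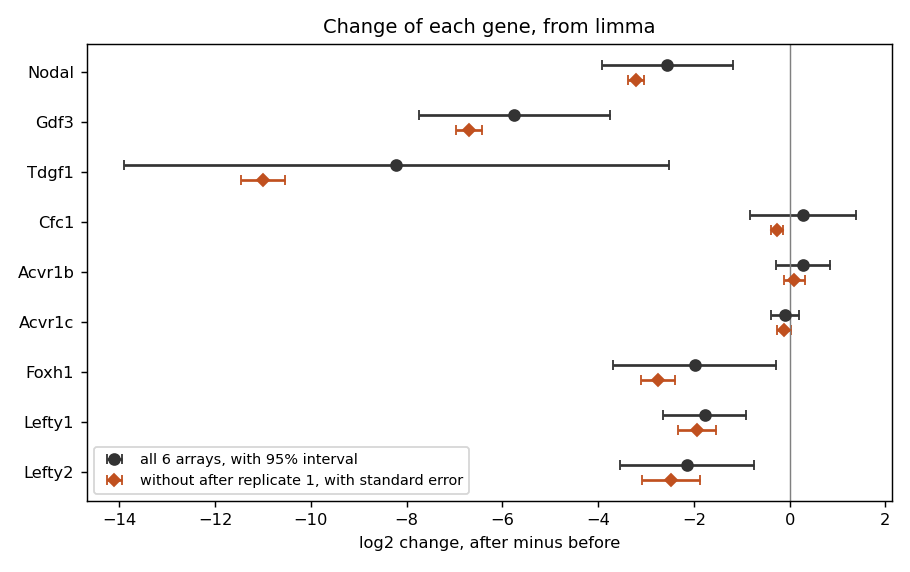
Log2 change, after minus before (horizontal axis), of the 9 genes from limma, with all 6 arrays (black circles, 95% interval) and without after replicate 1 (orange diamonds, standard error). Nodal, Gdf3, Tdgf1, Foxh1, Lefty1 and Lefty2 lie left of 0 in both settings, with Tdgf1 farthest left (-8.22 and -10.99).

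After replicate 1 lay at unequal parts of the distance between the groups from gene to gene. As a share of the log2 difference between the mean before and the mean of after replicates 2 and 3, its own difference from the mean before was 74.4% for Lefty1, 59.1% for Lefty2 and 57.5% for Gdf3. It was 38.9% for Nodal, 24.3% for Tdgf1 and 16.4% for Foxh1. Over the 1263 genes at least 2 log2 units lower in after replicates 2 and 3 the median share was 37.7% (quartiles 21.5% and 53.3%). Lefty1, Lefty2 and Gdf3 thus lay above the upper quartile and Foxh1 below the lower one. Lefty1, with a log2 change of -1.94 in those arrays, is not itself among the 1263 genes. Over the 7 stem cell markers with a lower mean after pre-differentiation the share ran from -4.85% (Utf1) through 19.96% (Nanog) to 37.8% (Fbxo15). These are values of 1 array with no test. For Lefty1 and Lefty2 the arrays that set the share, after replicates 2 and 3, lay below the background level.

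**Figure D3:**
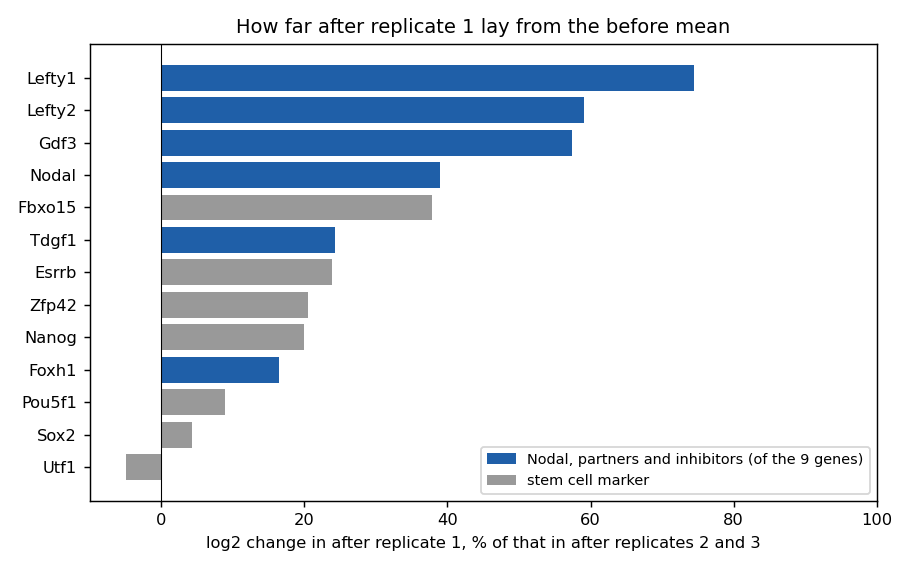
Log2 difference of after replicate 1 from the mean before, in percent of that of after replicates 2 and 3 (horizontal axis), for genes at least 1.5 log2 units lower in those arrays; blue bars are those of the 9 genes that qualify and grey bars stem cell markers, and no other pathway genes are plotted. Lefty1 (74.4%), Lefty2 (59.1%) and Gdf3 (57.5%) are at the top, while Utf1, Sox2 and Pou5f1 are at the bottom.

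The 3 genes whose mean-centred profile over the 6 arrays was nearest to each of the 4 genes with a change of at least 2 log2 units were looked up among 1665 candidates with changes as large. Nearest to Tdgf1 were 2410141K09Rik (root mean square difference 0.25 log2 units), Tdgf1-ps1 (0.41) and Nanog (0.55). For Gdf3 they were 1700029P11Rik (0.60), Zfp936 (0.60) and CN725425 (0.65), so no candidate followed Gdf3 as closely as the nearest ones did Tdgf1. Nodal was followed by Rpp40 (0.16), Hspbap1 (0.16) and Gstp3 (0.17), and Lefty2 by Ccdc160 (0.08), Dimt1 (0.09) and Gm12418 (0.11). These 4 genes were not each other's nearest: Gdf3 ranked 669th for Nodal and 53rd for Tdgf1, and Lefty2 ranked 382nd for Nodal. Members with smaller changes, such as Foxh1 (-1.98) and Lefty1 (-1.77), were not candidates and have no rank. Profiles were centred but not scaled, so these ranks also reflect unlike sizes of change (-2.56 for Nodal, -5.75 for Gdf3, -8.22 for Tdgf1). They do not compare shape alone. With 6 arrays in a few clusters, likeness of this kind describes the arrays and says nothing of shared control.

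Among the other genes of the pathway 13 had a higher and 9 a lower mean after pre-differentiation, beside 9571 and 20605 of all 30176 genes. Of 22 with a row of their own, limma called 1 higher and 0 lower with all arrays, where 1.24% and 0.650% of all genes were called. With after replicate 1 left out it called 5 higher and 1 lower, against 7.80% and 7.48% of all genes. Their median log2 change was 0.13. In 7 of the 22 every array after lay above every array before (11.8% of all genes), and in 2 below (28.2% of all genes). The gene called was Furin, a proprotein convertase that cleaves the Nodal precursor. Its log2 signal was 5.32, 4.999 and 5.11 before and 6.53, 7.13 and 7.24 after, a rise of 1.82 on the log2 scale (limma adjusted p = 0.0397, standard error 0.22), or 2.04 without after replicate 1 (adjusted p = 0.00483). The call was lost with a robust variance trend (adjusted p = 0.0537) and on leaving out any array except after replicate 1 (adjusted p from 0.0648 to 0.173). Pcsk6, the other convertase on the list, had a log2 change of -0.82 (adjusted p = 0.525), or -1.70 without after replicate 1 (adjusted p = 0.0616).

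Most of these genes did not pass with all arrays. All 4 transducers (Smad2, Smad3, Smad4 and the ubiquitin ligase Trim33) had a higher mean after pre-differentiation, as did 9571 of all 30176 genes. With all arrays 0 of the 4 passed, where 1.24% of all genes were called higher. Smad3 read 5.63, 5.84 and 5.41 before and 6.66, 8.46 and 7.87 after, a log2 change of 2.04 (limma adjusted p = 0.0850, standard error 0.46), or 2.54 without after replicate 1 (adjusted p = 0.00748). The groups of Smad2 (log2 change 0.54, adjusted p = 0.119) and Smad4 (0.93, adjusted p = 0.109) did not overlap either. Every array after lay above every array before in 11.8% of all genes. Acvr2a, a type II receptor gene, had a log2 change of 1.62 (adjusted p = 0.0873), or 2.02 without after replicate 1 (adjusted p = 0.00970), while that of Acvr2b was 0.005 (adjusted p = 0.992). Of the inhibitors, the corepressor gene Tgif1 read 10.71, 9.71 and 10.31 before and 9.62, 8.27 and 8.39 after, a log2 change of -1.48 (adjusted p = 0.129), or -1.91 without after replicate 1 (adjusted p = 0.0287). Pmepa1, a feedback inhibitor of Smad2 and Smad3, had a log2 change of 1.18 (adjusted p = 0.105), or 1.44 without after replicate 1 (adjusted p = 0.0391). Acvr2a and Pmepa1 were named after their values were seen, as were Smad2, Smad4, Acvr2b and Pcsk6.

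Of 5 target genes known from the embryo, 0 passed with all arrays and 1, higher, without after replicate 1. The shares of all genes called higher were 1.24% and 7.80%. Foxa2, a forkhead factor of endoderm and midline that responds to high Nodal signalling in the embryo, had a log2 signal of 6.06, 6.27 and 5.98 before and 8.06, 9.56 and 10.44 after. Its log2 change was 3.25 (limma adjusted p = 0.0616, standard error 0.58), or 3.90 without after replicate 1 (adjusted p = 0.00467). The other 4 target genes measured (Eomes, Mixl1, Gsc and Lhx1) had log2 changes from -0.34 (Mixl1) to 1.0 (Eomes), with 0 past the threshold in either setting. Mixl1 had both group means below the background level. Gsc (means 4.39 and 4.19) and Lhx1 (4.43 and 4.61) lay close to it, so Mixl1, Gsc and Lhx1 carried little information. Foxa2 is also made in extraembryonic endoderm, whose markers also differed between the groups, and the part of those cells in its signal was not tested.

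**Figure D4:**
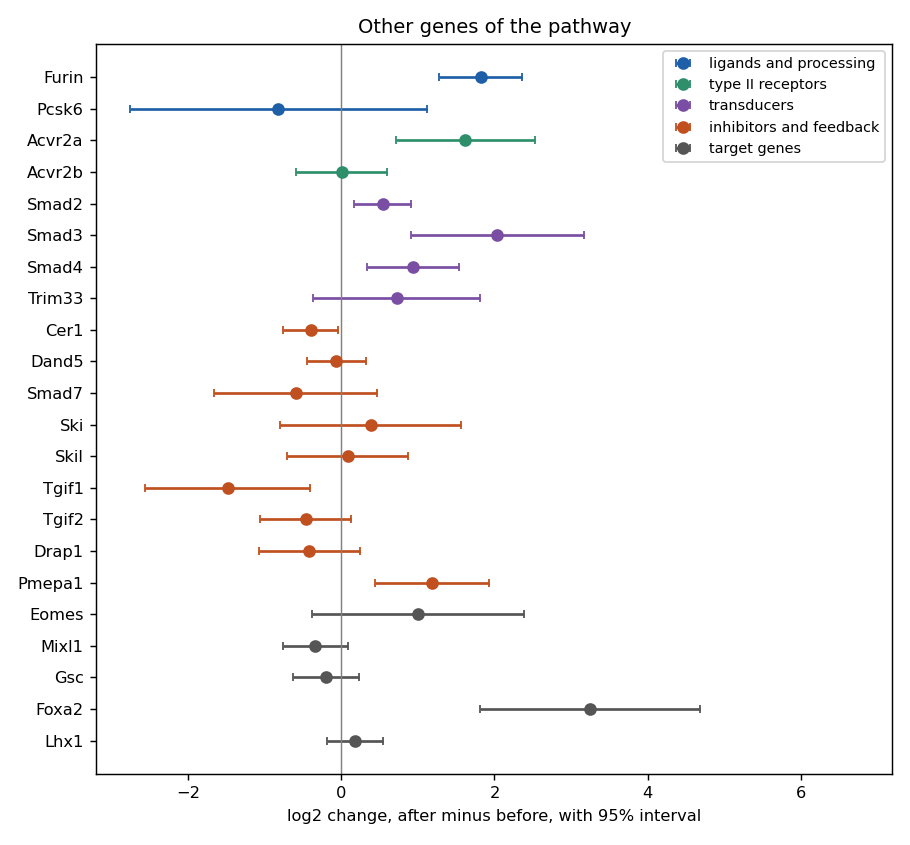
Log2 change, after minus before, with 95% interval from limma over all 6 arrays (horizontal axis) for 22 other genes of the pathway, coloured by role. Furin, at 1.82, is the gene past the adjusted threshold. The points of all 4 transducers lie right of 0, where 9571 of all 30176 genes had a higher mean.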

How the data were processed

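The authors hybridised biotin-labelled total RNA to mouse Clariom D arrays, used Transcriptome Analysis Console for the scans, and deposited a table of log2 signals (72688 rows). That software's version, its summarization and background correction, and the genome build, were not given in the sources used here. Values were used without further normalization. Rows were named through GEO's platform annotation. Of the transcript clusters 30638 rows had 1 symbol, 2176 several and 33142 none, and the brightest row stood for a gene (30176 genes). Gdf1 shares its row with Cers1 and is not analysed here.

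The comparison of the groups used lmFit and eBayes of limma 3.58.1 under R 4.3.3, with two-sided p-values, on 72657 rows, which leaves out 31 AFFX control rows and keeps 6701 other control rows. P-values were adjusted by Benjamini-Hochberg over all of these rows, with a threshold of 0.05. The fit was tested on simulated data with independent noise and no outlying array, so that test does not cover an array such as after replicate 1. Array medians were 4.17 to 4.47, and over all rows the log2 change had a median of -0.18. The background level was set from 1716 olfactory and vomeronasal receptor genes, as the 95th percentile of their mean signals, since the table gives no detection p. The number of arrays limits the precision. The genes, the pathway list, the markers and the tests were chosen with earlier results of these data known. Genes named beyond the 9 were other pathway genes past the threshold with all arrays, the 3 largest in each direction past it without after replicate 1, and the 3 nearest profiles. Smad2, Smad4, Trim33, Acvr2a, Acvr2b, Skil, Pmepa1, Pcsk6, Eomes, Mixl1, Gsc and Lhx1 fall outside that rule, as do the markers, and were named after their values were seen. Alternatives were quantile normalization, median centring, bright rows only, control rows left out, a trend with robust variances and Student's test. Others were the mean of a gene's rows, a replicate block, and leaving out each array.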

Additional observations from a re-analysis of the deposited data

How the results depend on the processing

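The count of called genes depended on single arrays and on the test. Over leaving out each array in turn, between 0 and 5 of the 9 genes were lower by limma and 0 were higher. Of the other pathway genes between 0 and 1 were lower and between 0 and 5 higher. The highest counts came without after replicate 1 (7.48% of all genes lower and 7.80% higher), and without any other array 0 passed. For the other arrays left out, and the other settings below except the unadjusted Student's test, the share of all genes called was not counted. A count of 0 there cannot be read as particular to these genes. The log2 changes ranged from -3.21 to -2.16 for Nodal, -6.70 to -5.26 for Gdf3, -10.99 to -6.51 for Tdgf1, -0.26 to 0.56 for Cfc1, -2.75 to -1.55 for Foxh1, -2.13 to -1.54 for Lefty1 and -2.57 to -1.57 for Lefty2. Student's test, unadjusted, called 5 of the 9 genes lower (Nodal at -2.56, Gdf3, Tdgf1 at -8.22, Lefty1 at -1.77 and Lefty2 at -2.14). It called 2 other pathway genes lower and 7 higher. Of all genes it called 18.4% lower and 7.69% higher. After Benjamini-Hochberg it called 0 of the 9 and 0 other pathway genes, with Gdf3 at -5.75 (adjusted p = 0.143). With bright rows only, 2 other pathway genes were higher, and with a trend and robust variances 0 were. Fewer rows are tested in the former; for the others the cause was not tested. Cfc1 and Acvr1c are left out with bright rows only and give no value there. The Acvr1c change, below background, reversed to 0.067 under quantile normalization and to 0.081 after centring on array medians. Over the settings other than leaving out arrays and the unadjusted test, the adjusted p of Gdf3 lay between 0.0350 and 0.143. All 9 genes have 1 row, so the mean of a gene's rows left their changes as they were.

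In a fit with a replicate block, 0 of the 9 genes and 0 other pathway genes passed, and Gdf3 at -5.75 had an adjusted p of 0.109. The share of all genes called in that fit was not counted either. The arrays share only a number: same-numbered arrays had deviations from their group means that correlated at -0.03, 0.14 and -0.08.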

Other observations

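A few pathway genes had their highest signal of the 6 arrays on after replicate 1, among them Acvr1b (8.73) and Skil (11.12), which other arrays came close to. The mesoderm and endoderm factor Eomes read 5.94, 5.12 and 5.87 before pre-differentiation and 7.81, 5.72 and 6.40 after on the log2 scale. The convertase gene Pcsk6 read 7.24, 5.99 and 6.51 before and 7.52, 4.97 and 4.79 after. Together with Cfc1 (5.27 on that array, 3.996 or lower on the others), these values belong to 1 array, were picked after they were seen, and have no test.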
